A study of Mus musculus with 16 samples.

Results

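MicroRNAs were compared between non-tumour liver of mice given phenobarbital and non-tumour liver of mice given none, with 3 samples in each group. These 6 samples were chosen by their titles out of 16. The other 10 are 7 tumours with a Ctnnb1 mutation, from mice given phenobarbital, and 3 with a Ha-ras mutation, from mice given none. All are from male C3H/HeJ mice, an inbred strain prone to liver tumours. Phenobarbital livers are replicates 4 to 6 and untreated livers, for which the labels give H2O as the agent, are replicates 1 to 3. Tissue of both groups is labelled as carrying no tumour and no mutation.

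The descriptions of the dosing differ and were not reconciled. The series' design text describes 1 injection of the carcinogen DEN (diethylnitrosamine), at a dose of 10 or 90 µg per g, in mice aged 2 or 6 weeks. A further 2 weeks later they were put on a diet with 0.05% phenobarbital or without it for 28 to 36 weeks. The sample labels give 27 weeks on the diet for both groups. The labels' protocols describe mice 29 to 32 days old in groups of 10, with 0.05% phenobarbital in the drinking water for 28 days. Whether these livers received DEN, and at which dose or age, is not stated for single samples. A difference between the arms in DEN and the effect of phenobarbital cannot be told apart here. Whether replicates are separate animals is not stated in the labels, so p-values measure the spread between these samples, which may be technical.

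Phenobarbital is a barbiturate that activates the constitutive androstane receptor in hepatocytes. It thereby induces drug-metabolising enzymes and liver growth, and it is a classical promoter of liver tumours in rodents. MicroRNAs are short RNAs that lower the translation and stability of messenger RNAs, which they recognise largely through the seed, bases 2 to 8. The Dlk1-Dio3 domain is an imprinted region whose maternal allele gives rise to long noncoding RNAs and to one of the largest clusters of microRNAs in mammals. It is active in the embryo and largely silent in adult liver, and its noncoding RNAs have been proposed as markers of phenobarbital exposure in mouse liver.

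The 8 microRNAs below were detected on at least 2 more phenobarbital than untreated arrays, and all lie in the Dlk1-Dio3 cluster. They are shown to let their seeds, in capitals, be compared. Sequences and positions are RefSeq's for GRCm38.p6, the array's older names were assigned to an arm by nomenclature, and each sequence runs 5′ to 3′.
mmu-miR-127-3p (chr12:109592888-109592909, plus strand): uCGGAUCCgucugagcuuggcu
mmu-miR-434-3p (chr12:109594565-109594586, plus strand): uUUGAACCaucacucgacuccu
mmu-miR-136-5p (chr12:109595331-109595352, plus strand): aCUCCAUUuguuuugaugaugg
mmu-miR-379-5p (chr12:109709065-109709085, plus strand): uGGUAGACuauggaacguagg
mmu-miR-299a-3p (chr12:109710676-109710697, plus strand): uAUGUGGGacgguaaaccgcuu
mmu-miR-376b-3p (chr12:109723508-109723528, plus strand): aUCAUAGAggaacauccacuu
mmu-miR-154-3p (chr12:109738474-109738495, plus strand): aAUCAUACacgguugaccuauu
mmu-miR-377-3p (chr12:109740553-109740574, plus strand): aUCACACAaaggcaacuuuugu
The seeds of these 8 all differ, so they share a position in the genome and not a seed.

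Members of the miR-15 and miR-29 families lay on the higher side in phenobarbital livers, and within each family the members share 1 seed.
mmu-miR-15a-5p (chr14:61632075-61632096, minus strand): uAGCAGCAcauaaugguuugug
mmu-miR-15b-5p (chr3:69009775-69009796, plus strand): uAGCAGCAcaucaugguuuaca
mmu-miR-16-5p (chr3:69009918-69009939, plus strand and chr14:61631936-61631957, minus strand): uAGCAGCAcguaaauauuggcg
mmu-miR-195a-5p (chr11:70235062-70235082, plus strand): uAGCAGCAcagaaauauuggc
mmu-miR-497a-5p (chr11:70234730-70234751, plus strand): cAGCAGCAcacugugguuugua
mmu-miR-29a-3p (chr6:31062673-31062694, minus strand): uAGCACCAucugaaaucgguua
mmu-miR-29b-3p (chr1:195037091-195037113, plus strand and chr6:31063025-31063047, minus strand): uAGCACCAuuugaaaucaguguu
mmu-miR-29c-3p (chr1:195037600-195037621, plus strand): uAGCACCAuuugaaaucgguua
The seed of the miR-15 family (AGCAGCA) and that of the miR-29 family (AGCACCA) are given in capitals.

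On the lower side were, among others, miR-193, miR-101b and several members of the miR-30 family.
mmu-miR-193a-3p (chr11:79712009-79712030, plus strand): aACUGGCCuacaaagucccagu
mmu-miR-101b-3p (chr19:29135338-29135356, plus strand): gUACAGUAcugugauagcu
mmu-miR-30a-5p (chr1:23272274-23272295, plus strand): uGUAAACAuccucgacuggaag
mmu-miR-30c-5p (chr1:23291714-23291736, plus strand and chr4:120769584-120769606, minus strand): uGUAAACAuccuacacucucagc
Both miR-30 sequences carry the seed GUAAACA.

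The arrays measured 566 mouse microRNAs with 1672 probes on 1 colour, from 25 ng of total RNA. A microRNA was called detected on an array if the scanner software marked the majority of spots of at least 1 of its probes as well above background. The arrays detected 85 to 101 microRNAs in phenobarbital livers and 92 to 102 in untreated livers (95 ± 8.72 and 95.7 ± 5.51, SD, n = 3 each; exact permutation test, two-sided p = 0.9, with 0.1 the smallest p possible). Levels are log2 scaled signals with a floor of 4.64, to which lower values were raised, so levels at the floor have no order among themselves. Levels of phenobarbital arrays correlated with each other at 0.982 to 0.993 across microRNAs and those of untreated arrays at 0.926 to 0.979. The SD was larger in untreated livers for 64 of the 96 tested microRNAs. Untreated replicate 3 stood apart at miR-494 (12.29 against 6.91 and 6.13 in the other untreated livers) and miR-720 (9.47 against 11.12 and 11.34). It was also the highest of the 6 livers at miR-690 (8.07), miR-1224 (8.48) and miR-689 (6.74). These were among the largest differences on the lower side, with overlap between the groups. Without that replicate the difference for miR-690 was -0.02. The tissue label was borne out by miR-122, the main hepatocyte microRNA, at 13.95 to 14.24 in all 6 livers. Of 8 microRNAs of neurons, muscle and pancreas, 0 were detected. The arrays of these 6 livers lay on 2 slides. Slide 2 held phenobarbital replicates 4 and 5 and untreated replicate 1, and slide 3 held phenobarbital replicate 6 and untreated replicates 2 and 3.

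The first question was which microRNAs differ between the 2 kinds of liver. None passed the test: limma called 0 of 96 microRNAs (0%) at an adjusted p under 0.05, and the smallest adjusted p was 0.559. At an unadjusted p under 0.05 the count was 6 (6.25%), namely miR-136, miR-15b, miR-195, miR-29b and miR-130a on the higher side in phenobarbital livers and miR-193 on the lower side. This fit pools the spread over all 4 groups, tumours included. A limma fit to the 6 liver arrays alone called 0 as well, with a smallest adjusted p of 0.125. There 17 of 96 had an unadjusted p under 0.05. All 3 phenobarbital arrays lay above all 3 untreated arrays for 14 microRNAs (14.6%) and below them for 10 (10.4%). The difference was above 0 for 58 of 96 (60.4%), with a median of 0.05 on the log2 scale. For 77 of 96 the 95% interval of the difference lay within 1 log2 unit on either side of 0. Changes of 1 log2 unit put into simulated data of this design were called in 86.25% of cases and changes of 0.5 in 27.5%. There 20 of the 96 microRNAs were changed at once, with the same SD in all groups and no floor. With fewer changed, or with levels at the floor as in the cluster below, the share called could be lower and was not simulated.

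**Figure D1:**
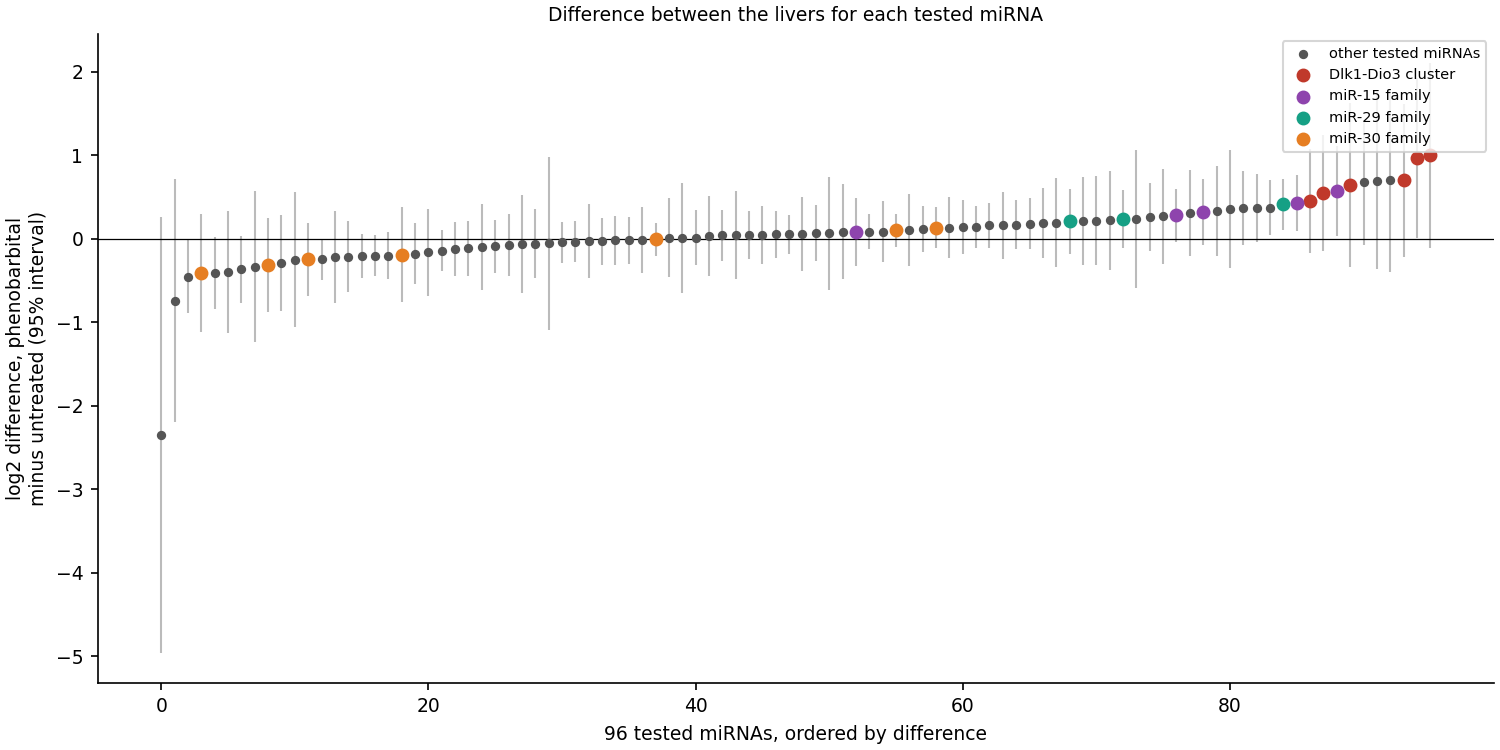
Log2 difference between phenobarbital and untreated livers for each of the 96 tested microRNAs in order of size, with the 95% interval of the limma fit. Cluster members other than miR-494 sit at the right end between 0.45 and 1.0 with wide intervals, at sizes set by the floor, most other microRNAs lie near 0, and miR-494, at -2.35, is the leftmost point.

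Apart from miR-494, the Dlk1-Dio3 cluster gave signal in phenobarbital livers and was not detected in untreated livers. The array holds 70 microRNAs of this cluster, by their position at chr12:109563692-109743795 of GRCm38.p6. One of them, miR-494, was detected on every array of both groups and was set aside for its value in untreated replicate 3. Its levels were 6.00, 5.66 and 6.62 in phenobarbital livers against 6.91, 6.13 and 12.29. Without untreated replicate 3 its difference was still below 0, at -0.43. Of the other 69, phenobarbital replicate 4 detected 8, replicate 5 detected 1 and replicate 6 detected 14, and each untreated replicate detected 0. Over the 3 phenobarbital livers this made 14 microRNAs against 0. The software's own detection flag gave 11, 4 and 17 against 0, 0 and 0. Without phenobarbital replicate 6, the highest array, 8 cluster members were detected.

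Across all 566 mouse microRNAs, 8 (1.41%) were detected on at least 2 more phenobarbital than untreated arrays, and all 8 were cluster members. They are miR-127, miR-434-3p, miR-136, miR-379, miR-299*, miR-376b, miR-154* and miR-377. The reverse held for 3 (0.53%), miR-146b, miR-199b* and miR-203, and none of these lies in the cluster. The members detected in phenobarbital livers ran from miR-337-5p and miR-127 near the Dlk1 side to miR-154 and miR-377 near the Dio3 side. None lay between the hairpin of miR-136, which ends at chr12:109595388, and that of miR-379, which starts at chr12:109709060.

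Levels of cluster members were low, near the detection limit, and uneven among the 3 phenobarbital livers. The level of miR-379, which names the large subcluster near Dio3, was 5.92, 4.64 and 6.35 in phenobarbital replicates 4, 5 and 6 and at the floor of 4.64 in all 3 untreated livers. Replicates 4 and 6 thus lay above every untreated liver and replicate 5 was at the floor with them. With the floor in place of the untreated level, the difference was 1.0 on the log2 scale (SE 0.52, 95% interval -0.11 to 2.10, limma adjusted p = 0.559). The level of miR-136, which lies antisense to the paternally expressed gene Rtl1, was 5.82, 4.73 and 6.29 against 4.64 in all 3 untreated livers. This was the single cluster member besides miR-494 detected on all 3 phenobarbital arrays. Since no untreated array detected it, the mean of the phenobarbital livers was set against the lowest detected signals of the untreated arrays. That ratio was 1.81 (limma adjusted p = 0.559). It concerns the means only, since replicate 5 lay next to the floor. With the floor as the untreated level, the 95% interval of the log2 difference ran from 0.01 to 1.93. The floor makes the SD of these microRNAs in untreated livers 0.

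The other 4 tested members followed the same order of arrays. The level of miR-299* was 5.52, 4.64 and 5.86, and that of miR-376b was 5.29, 4.64 and 5.92. The level of miR-127, also antisense to Rtl1, was 5.30, 4.64 and 5.61, and that of miR-377 was 5.18, 4.64 and 5.45. Untreated livers were at 4.64 on every array for all 4. None of the 6 tested members without miR-494 passed limma's test (0 of 6). The size of these differences is set by the floor, since untreated livers lie at it throughout and replicate 5 does for 5 of the 6. For the list of cluster microRNAs chosen by name, which includes miR-494, the median was 0.59 in the main setting and 1.19 with a floor at 0.5 of its value. All 7 Ctnnb1-mutated tumours detected the 6, and 5 of them entered the test through these tumours alone. The sixth, miR-136, was also detected in all 3 phenobarbital livers. Members that entered through a group where they are high are no neutral sample of the cluster, so nothing is read from their differences as a group.

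Before the floor was applied, the scaled linear signal still gave the arrays an order. For miR-379 it was 71.9, 15.3 and 95.1 in phenobarbital livers against 1.64, 2.93 and 3.89 in untreated livers. For miR-136 it was 70.7, 17.4 and 95.4 against 8.12, 9.99 and 9.47, and for miR-299* it was 54.0, 13.2 and 69.3 against 1.90, 2.38 and 0.40. Replicate 5, at the floor on the log scale, was thus the lowest of the phenobarbital livers and above all untreated livers for these 3. The 14 members detected in phenobarbital livers all showed this order, but they had been picked by detection in those livers. Over all 69 members, picked by position alone, the groups did not overlap for 24 on the higher side (34.8%) and for 1 on the lower side (1.45%). Over all 566 microRNAs the shares were 8.13% and 6.18%, and over the 497 outside this set they were 4.43% and 6.84%. Signals this close to background carry no fold, and they were compared after the floor had been seen to hide them. For the 24, separation within each slide follows from the lack of overlap and is no separate result. Of these, 10 were not detected on any phenobarbital array.

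**Figure D2:**
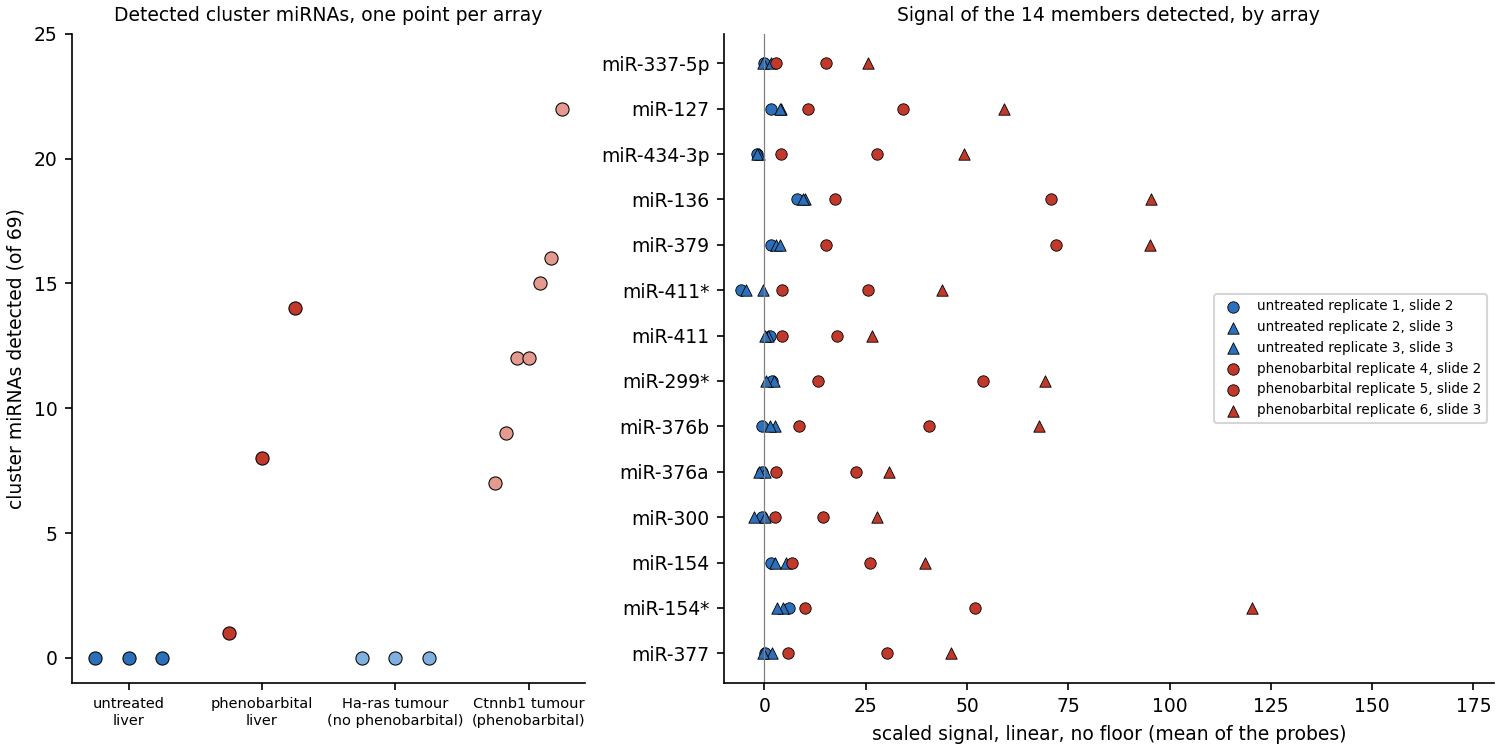
Left, number of the 69 Dlk1-Dio3 microRNAs detected on each array, 1 point per array, in the 4 groups of the series. Right, scaled linear signal without the floor for the 14 members detected in phenobarbital livers, in genomic order, with untreated livers in blue, phenobarbital livers in red and the slide as the symbol. Untreated points stay near 0, replicate 5 is the leftmost red point in every line, and replicate 6 reaches 120 at miR-154*.

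Cluster members other than miR-494 were also detected in tumours of the phenobarbital arm and not in those of the other arm. Between these tumours genotype differs along with phenobarbital. The cluster's difference between tumours and livers was not tested. The 7 Ctnnb1-mutated tumours, from mice given phenobarbital, detected 7 to 22 of the 69 members, and the 3 Ha-ras-mutated tumours, from mice given none, detected 0 each. Slide differed in part as well: slide 1 held all 7 and Ha-ras replicate 1, and slide 2 held Ha-ras replicates 2 and 3. All 14 members detected in phenobarbital livers were detected in at least 1 Ctnnb1-mutated tumour. For miR-379 these tumours ranged from 5.16 to 7.31 with a median of 6.40, and for miR-136 from 5.00 to 6.90 with a median of 5.64. Phenobarbital replicates 4 and 6 lay within both ranges and replicate 5 lay below both.

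Markers of other cells in the tissue were set beside the cluster. For endothelial cells, miR-126-3p was 9.60, 9.61 and 9.61 in phenobarbital replicates 4 to 6 against 9.24, 9.49 and 9.55. The mean of 2 stromal markers was 5.84 to 5.86 against 5.35 to 6.29, and that of 4 leukocyte markers was 5.97 to 6.10 against 5.63 to 6.29. The 2 stromal markers had differences of opposite sign, -0.37 for miR-143 and 0.21 for miR-199a-3p. In bulk tissue, fewer cells of a type and less RNA per cell cannot be told apart. Biliary markers of the miR-200 family were detected for 1 of 5 in phenobarbital and 2 of 5 in untreated livers. The part of these cells in the cluster signal was not tested.

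The miR-15 family lay on the higher side as a group. These microRNAs repress cell-cycle genes such as cyclins and also the survival factor Bcl2. All 5 tested members had a difference above 0, against 60.4% of all tested microRNAs, and 4 stood apart on the higher side, against 14.6%. The median was 0.32 against 0.05. For miR-15b the levels were 7.64, 7.55 and 7.54 in phenobarbital livers and 6.82, 7.20 and 7.01 in untreated livers. The 3 phenobarbital livers lay close together and above all untreated livers, with a difference of 0.57 (SE 0.25, limma adjusted p = 0.559). For miR-195 the levels were 5.89, 5.92 and 5.92 against 5.16, 5.63 and 5.68 (difference 0.42, SE 0.16, limma adjusted p = 0.559). The phenobarbital values differed by less than 0.05 while untreated replicate 1 was the lowest. Its neighbour miR-497, transcribed with it from 1 locus on chromosome 11, was at 5.95, 5.80 and 5.89 against 5.26, 5.76 and 5.65. The difference for miR-15a was 0.28 without overlap, while miR-16 overlapped between the groups (7.32, 7.44 and 7.29 against 6.90, 7.43 and 7.48). Untreated replicate 1, on slide 2, was the lowest array for 4 of these 5 microRNAs. Within slide 3 the difference was 0.44 for miR-15b, 0.27 for miR-195 and -0.16 for miR-16.

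The miR-29 family represses collagens and other matrix genes and DNA methyltransferases. It also lay on the higher side in 3 of 3 members, against 60.4% of all tested microRNAs. All 3 did so without overlap, against 14.6% of all tested. For miR-29b the levels were 9.10, 9.07 and 9.27 against 8.78, 8.89 and 8.54, without overlap. The difference of 0.41 (SE 0.14, limma adjusted p = 0.559) had the smallest unadjusted p of all 96. For miR-29a the levels were 9.69, 9.69 and 9.78 against 9.29, 9.53 and 9.63, and for miR-29c they were 9.05, 8.95 and 9.06 against 8.80, 8.80 and 8.83. With no overlap, the sign of each member was bound to be the same on both slides. The lack of overlap in both families depends on the scaling. When arrays were scaled over all mouse probes, 0 of 5 and 0 of 3 members stood apart, beside 3 of all 96 on the higher side and 3 on the lower. Then 4 of 5 and 3 of 3 lay above 0, the medians were 0.17 and 0.04, and the median of all 96 moved from 0.05 to -0.05. Relative to that shift both families stayed on the higher side.

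Among single microRNAs, miR-130a was at 8.92, 8.80 and 8.86 in phenobarbital livers against 8.55, 8.43 and 8.50 (difference 0.37, SE 0.15, limma adjusted p = 0.559). Its difference was 0.31 within slide 2 and 0.39 within slide 3. The others with all phenobarbital livers above all untreated livers were miR-709, miR-26b, let-7f, let-7a and miR-126-3p, with differences of 0.37, 0.34, 0.22, 0.16 and 0.18. Under the scaling over all mouse probes the last was -0.02. Differences of miR-140 and let-7e were 0.37 and 0.35, with overlap between the groups.

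Of 10 tested hepatocyte-enriched microRNAs, 4 lay lower in phenobarbital livers without overlap, against 10.4% of all tested microRNAs, and 0 lay higher without overlap, against 14.6%. The median was -0.11. These 4 were miR-193, miR-101b, miR-194 and miR-378. For miR-193 the levels were 6.45, 6.63 and 6.80 against 7.02, 7.37 and 6.84, a difference of -0.45 (SE 0.20, limma adjusted p = 0.559). The lowest untreated liver was only just above the highest phenobarbital liver. For miR-101b, which represses the polycomb methyltransferase Ezh2, the levels were 7.32, 7.34 and 7.54 against 7.65, 7.80 and 7.97 (difference -0.41, SE 0.20, limma adjusted p = 0.559). Its paralog miR-101a had a difference of 0.01 with overlap. For miR-194 the levels were 7.68, 7.77 and 7.76 against 8.09, 7.98 and 7.99, while miR-192, which can share its transcript, differed by 0.04 with overlap. For miR-378, which lies in an intron of the metabolic coactivator Ppargc1b, they were 5.10, 5.30 and 5.33 against 5.48, 5.51 and 5.48. The main hepatocyte microRNA miR-122 differed by -0.10 (95% interval -0.62 to 0.41). Under the scaling over all mouse probes the list's median was -0.31 and 0 of 10 stood apart, where 3 of all 96 did on the lower side.

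The miR-30 family, known to restrain fibrotic and epithelial-mesenchymal programmes, had 5 of 7 tested members below 0, against 38 of all 96. On the lower side 3 stood apart, against 10 of all 96, and the median was -0.19 against 0.05. Scaled over all mouse probes, 1 of 7 stood apart on the lower side, beside 3 of all 96. The median was then -0.25 beside -0.05. For miR-30a the levels were 7.72, 7.99 and 7.94 against 8.07, 8.25 and 8.27, without overlap. For miR-30c they were 6.84, 6.95 and 6.95 against 7.10, 7.20 and 7.19, and for miR-30d they were 6.19, 6.30 and 6.31 against 6.33, 6.72 and 6.98. The guide strand miR-30b overlapped at a difference of -0.01 (95% interval -0.20 to 0.18), as did the passenger strands miR-30a* and miR-30e* at 0.13 and 0.10. The smallest limma adjusted p among miR-30a, miR-30c and miR-30d was 0.654. The partner of miR-193, miR-365, was at 7.37, 7.70 and 7.65 against 8.02, 7.93 and 7.78. Both miR-193 and miR-365 lay lower without overlap, against 10.4% of all tested microRNAs. With scaling over all mouse probes, and with the deposited values, 0 of these 2 stood apart and both stayed below 0. The remaining 2 of the 10 in the main setting were let-7b at -0.20 and miR-221 at -0.21.

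**Figure D3:**
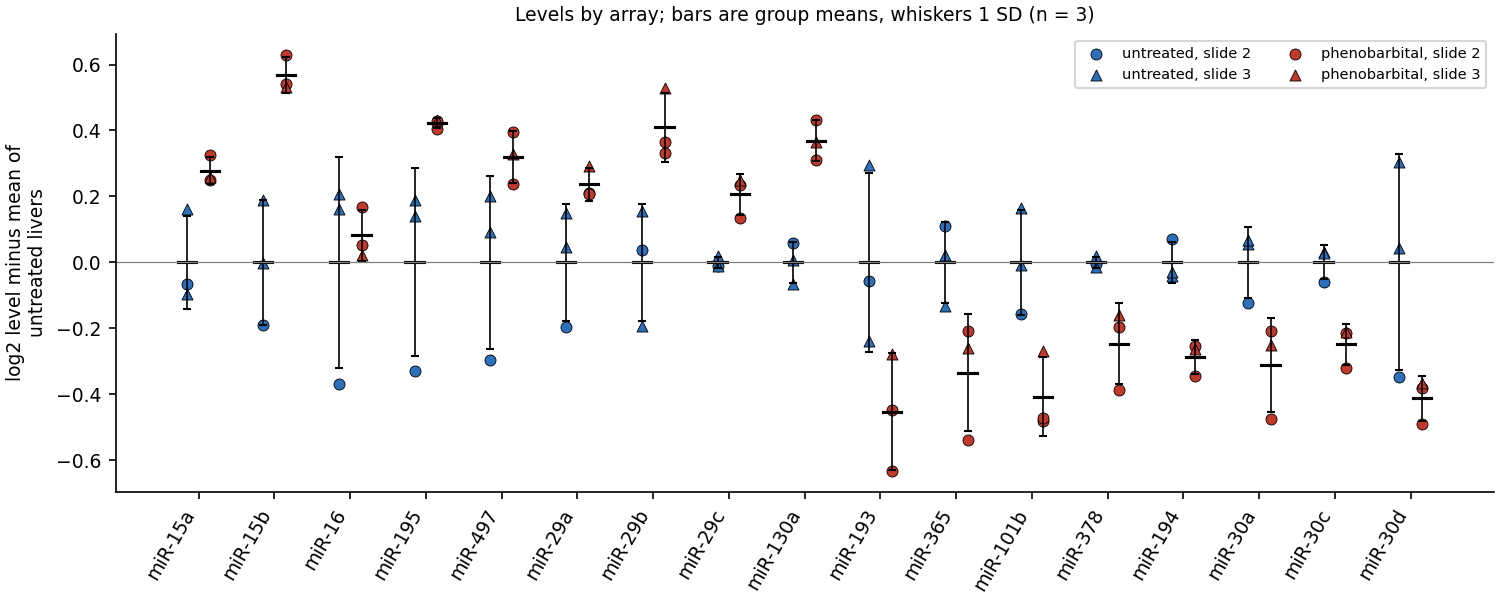
Level of each array minus the mean of the untreated livers, on the log2 scale, for members of the miR-15, miR-29 and miR-30 families and 6 single microRNAs, with group means as bars, 1 SD as whiskers (n = 3) and the slide as the symbol. The miR-15 and miR-29 members other than miR-16, and miR-130a, show the red points above the blue ones, and the microRNAs from miR-193 to miR-30d show them below, with gaps that are often small against the whiskers.

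Of the remaining lists, the let-7 family, which represses Ras and Myc among others, had 7 of 9 members above 0. Its median was 0.06. On the higher side let-7a and let-7f stood apart, 2 of 9 against 14.6% of all tested microRNAs. On the lower side let-7b did, 1 of 9 against 10.4%. Scaled over all mouse probes, 2 of 9 lay above 0 and the median was -0.13, so that no direction is given for this family. The miR-17-92 cluster and its paralogs, induced by Myc, had 5 of 8 above 0 with a median of 0.06, or -0.03 under that scaling, and 0 apart in either direction. In the list for lipid and glucose metabolism, which holds the 3 miR-29 members, 4 of 11 lay above 0 and the median was -0.06. The sterol regulator miR-33 differed by 0.14 and miR-34a, a p53 target, by -0.06 with a 95% interval from -1.09 to 0.98. The oncogenic miR-21 was at 12.20, 11.99 and 12.28 against 11.91, 12.35 and 12.39 and overlapped fully. The 2 tested erythroid microRNAs varied most within untreated livers. For miR-451 the levels were 11.86, 12.10 and 11.63 against 10.25, 12.23 and 11.03, and for miR-144 they were 7.28, 7.51 and 6.88 against 5.73, 7.71 and 6.12. Their differences of 0.70 each came with 95% intervals from -0.36 to 1.75 for miR-451 and from -0.40 to 1.79 for miR-144.

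**Figure D4:**
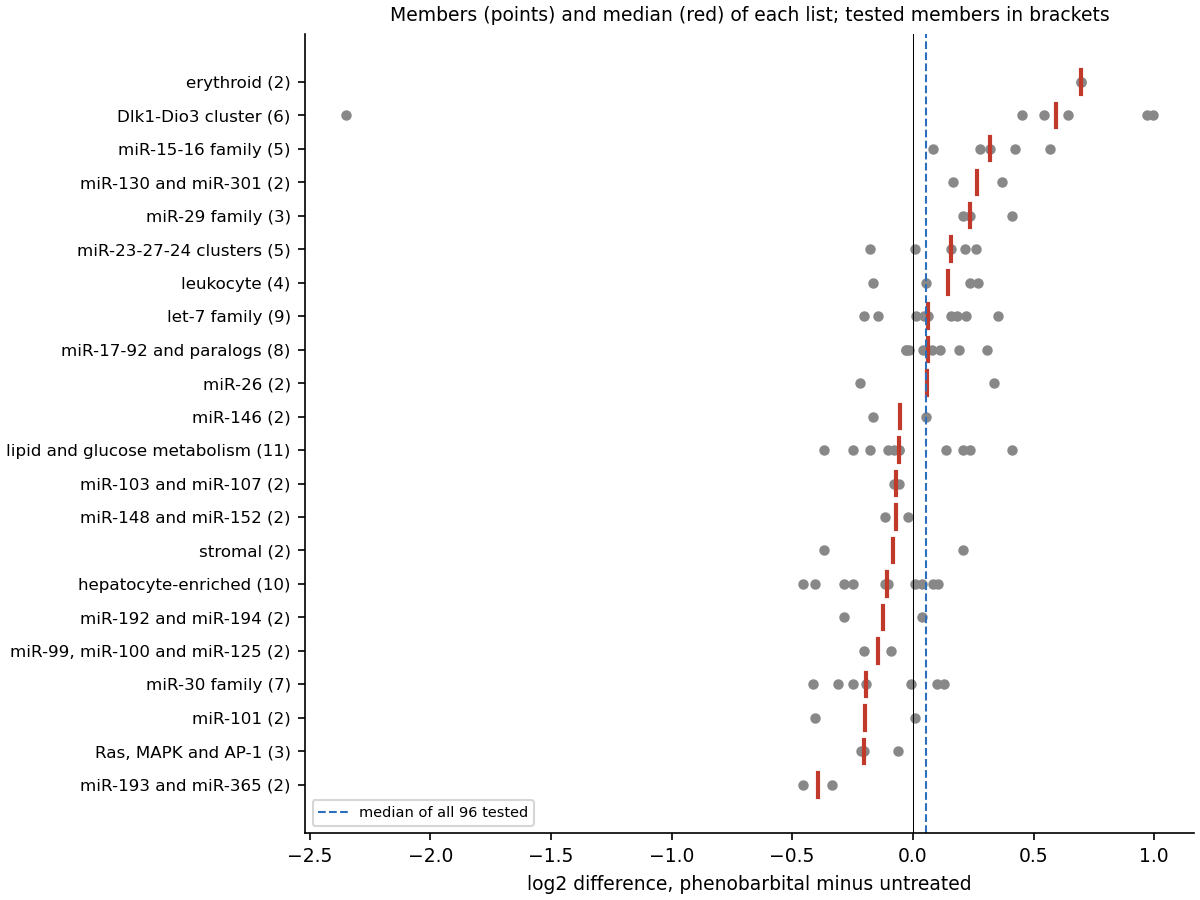
Log2 difference between phenobarbital and untreated livers of the tested members of each list (grey points) with the list's median (red bar) and the median of all 96 tested microRNAs (dashed line). The miR-15, miR-29, erythroid and Dlk1-Dio3 lists lie to the right, the last holding miR-494 at -2.35 and chosen by name, and the miR-193 and miR-30 lists lie to the left.

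Some microRNAs were weaker in phenobarbital livers near the detection limit. For miR-146b, a leukocyte and NF-κB-responsive microRNA, the level was at the floor of 4.64 in all 3 phenobarbital livers and at 4.64, 4.79 and 4.99 in untreated livers. Its linear signal without the floor was 1.81, 3.03 and 3.18 against 14.5, 18.6 and 22.6, with no overlap, while its relative miR-146a overlapped (5.27, 5.18 and 5.16 against 4.85, 5.17 and 5.44). For miR-203, known from epithelia, the linear signal was 11.1, 13.7 and 10.4 against 19.5, 19.9 and 21.6, also with no overlap. The third, miR-199b*, did overlap (11.3, 14.7 and 15.3 against 8.81, 28.8 and 24.3), with untreated replicate 1 the lowest of all. These 3 had been picked by detection in untreated livers, so their signals on the same arrays are no separate test. Over all 566 microRNAs the groups stood apart on the lower side without the floor for 35 (6.18%).

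Differences were also taken within each slide. The sign was the same on slide 2 and slide 3 for 65 of 96 microRNAs, 42 of them higher and 23 lower in phenobarbital livers. For the 24 tested microRNAs whose groups did not overlap it could not come out otherwise. With slide as a term, limma called 0 of 96 as well. For miR-143, a stromal microRNA, the signs were opposite, at 0.22 within slide 2 and -0.57 within slide 3. Its levels were 4.88, 4.91 and 5.07 in phenobarbital livers and 4.67, 5.60 and 5.67 in untreated livers, with the low value in untreated replicate 1. Without that replicate the difference was -0.69 and passed limma's test (adjusted p = 0.00025), the 1 call made by leaving out a library. The fit pools the spread over all groups, and the tumours lie at or next to the floor for miR-143. Their SD was 0.0011 (Ctnnb1-mutated) and 0 (Ha-ras-mutated). This p-value therefore does not measure the spread between livers, and no difference is read from it.

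**Figure D5:**
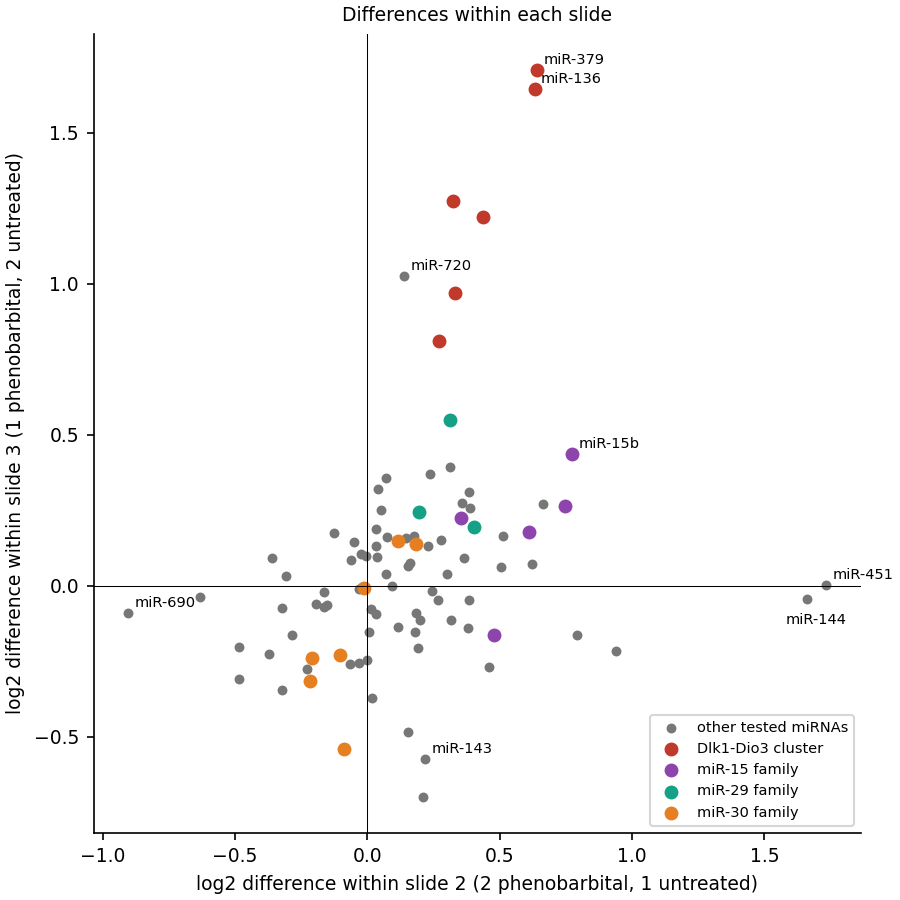
Log2 difference within slide 2 (2 phenobarbital arrays against 1 untreated) and within slide 3 (1 against 2) for the tested microRNAs other than miR-494, with the cluster and families coloured. Cluster members lie in the upper right quadrant, higher on slide 3, and miR-451 and miR-144 lie at 1.73 and 1.66 on slide 2 and near 0 on slide 3.

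A final comparison asked whether the difference between the arms was the same in tumours and in non-tumour liver. It differed for 2 of 96 microRNAs (2.08%), miR-146b and miR-31, a microRNA induced by Ras signalling. Both entered the test through the Ha-ras-mutated tumours alone, the group where they are high. They are thus no neutral sample, and the filter favours such a difference. Between Ctnnb1-mutated and Ha-ras-mutated tumours miR-146b differed by -3.73 and between the livers by -0.16 (difference of differences -3.56, SE 0.32, limma adjusted p = 1.44e-06). For miR-31 the values were -1.28 and -0.20 (difference -1.08, SE 0.15, limma adjusted p = 0.000168). Levels of miR-31 were 4.64, 4.99 and 4.65 in phenobarbital livers and 5.04, 5.05 and 4.80 in untreated livers, which overlap. In the tumours genotype and phenobarbital change together. All 7 Ctnnb1-mutated tumours and Ha-ras replicate 1 lay on slide 1, which held none of the livers. Ha-ras replicates 2 and 3 lay on slide 2, so slide differs in part along with the groups. The floor bounds both values. For miR-146b all phenobarbital livers and all 7 Ctnnb1-mutated tumours were at it, so these arrays add no spread to limma's test. For miR-31 phenobarbital replicate 4 was at it, and so were all Ctnnb1-mutated tumours other than replicate 1, at 4.84. With a floor at 0.5 of its value the difference of differences was -4.02 for miR-146b and -1.71 for miR-31, and both still passed limma's test (adjusted p = 4.77e-07 and 0.00645).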

How the data were processed

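MicroRNA was measured on 16 one-colour arrays, of which the 6 of non-tumour liver form the comparison. The deposited intensity of each spot comes from Agilent Feature Extraction 10.7.3.1, per the file headers, after subtraction of background and with no normalisation between arrays. The authors' deposited table of log2 values, for which the submitters' processing notes name R 2.14.1, served as an alternative. How its values were normalised, and how low ones were treated, is unknown here.

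Outlier spots, control probes and probes for viral microRNAs were dropped, and spots of a probe were averaged. Signals were divided by a 75th percentile taken in each array from the 117 mouse probes that all 16 arrays detected, multiplied by 1 constant, raised to a floor of 24.96 and taken to log2. A microRNA is the mean of its probes. The percentile was 386 to 644 in phenobarbital livers and 510 to 635 in untreated livers, and the number of arrays limits the precision.

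The 96 microRNAs that all arrays of 1 group or more detected were fitted with limma 3.58.1 in R 4.3.3 (lmFit, eBayes), with 4 group means over 16 arrays, 12 residual degrees of freedom and Benjamini-Hochberg adjustment at 0.05. The fit was tested on simulated data. A fold against a group with no detection is a bound on the ratio of group means, set against the lowest detected signal of each array. Cluster members were taken by the position of their hairpin in RefSeq (522 of 566 array names matched).

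The named microRNAs were those called, the 12 largest differences in each direction among those detected on all 6 arrays, bounds, up to 3 of each list by smallest p, miR-122, and those detected on at least 2 more arrays of 1 group. Values are not given above for every one of these. The remaining microRNAs whose groups did not overlap, and let-7 and miR-30 members given for contrast, were chosen after their values were seen. Members and lists were chosen with earlier results of these data known. Alternatives covered scaling, background correction, floor, filter, slide and each array left out.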

Additional observations from a re-analysis of the deposited data

Results flagged for a closer look

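For 2 microRNAs the difference between the phenobarbital arm and the arm without it was not the same in tumours as in non-tumour liver, by a test of the difference itself. The difference of differences was -3.56 on the log2 scale for miR-146b and -1.08 for miR-31. Ha-ras-mutated tumours had 7.67 to 9.17 for miR-146b and 5.88 to 5.99 for miR-31, above all livers. Both values rest in part on levels at the floor, and both microRNAs entered the test through the Ha-ras-mutated tumours alone.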

How the results depend on the processing

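The count of called microRNAs in the liver comparison was 0 in the main setting. It was 5 with the deposited values, 1 with a filter of detection on at least 1 array and 1 with no filter. The 5 were miR-136, miR-379, miR-299* and miR-127, higher by 6.94, 6.81, 6.44 and 6.03 on the log2 scale, and miR-146b at -5.58, all with values at a low end whose handling is unknown. The 1 called under both filters was miR-203, lower, which was at the floor in all phenobarbital livers and detected in 0 Ha-ras-mutated tumours. Leaving out each replicate gave 0 to 1 calls, the 1 being miR-143 without untreated replicate 1, where tumours at the floor narrow the spread. The count at an unadjusted p under 0.05, 6 in the main setting, ran from 1 with scaling over all mouse probes to 19 with the slide block over the 6 arrays. That scaling put 33 of 96 differences above 0 against 58. Without miR-494, cluster members detected in phenobarbital livers numbered 8 to 14 and those in untreated livers 0 to 0 with a replicate left out; with miR-494 untreated livers had 1. The count of microRNAs whose arm difference was not the same in tumours and livers was 2. It was 1 with the total gene signal, 1 with the deposited values and 0 with the filter of detection on all 6 arrays, which leaves out both microRNAs, and 2 to 3 with a replicate left out. No paired analysis was possible because the 2 kinds of liver share no replicate number in the labels. With the replicate number within an arm as a replicate block, the count of arm differences was 4 (miR-146b, miR-31, miR-21 and miR-345-5p), but same-numbered samples correlated from -0.77 to 0.58 and so share only a number. No direction that passed its test reversed in the alternatives run. The median half-width of the 95% interval was 0.41 log2 units, unadjusted and with the spread pooled over livers and tumours. It is no limit of detection. In the simulation changes of 0.5 log2 units were called in 27.5% of cases, so differences of that size were mostly not detectable.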
